A study of Homo sapiens with 10 samples.

Results

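MARVEL-domain proteins are membrane proteins that cross the lipid bilayer 4 times and take their shared domain name from MAL and related proteins of vesicle trafficking and membrane linking. MAL2 works in transcytosis, the route by which epithelial cells carry proteins from the basolateral to the apical surface through the cell. Occludin (OCLN), tricellulin (MARVELD2) and MARVELD3 sit in tight junctions, the seals between neighbouring epithelial cells. The CMTM proteins are chemokine-like factor relatives, of which CMTM6 and CMTM4 keep the checkpoint ligand PD-L1 on the cell surface, and MYADM is a protein of ordered, raft-like membrane.

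The genes described here are 10 of this class, MAL2, MARVELD1, MARVELD2, MARVELD3, OCLN, CMTM3, CMTM4, CMTM6, CMTM7 and MYADM, out of 58050 Ensembl gene identifiers. They were taken by symbol, and each matched 1 identifier. The set was selected on the RNA level of MAL2 and its relatives in these same groups, so the values of the 10 genes are given as a description without a test. All 10 passed the filter for the fit, an average of 1 TPM or more.

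HCT116 is a line of human colorectal carcinoma cells, and RNA was sequenced from 5 samples of HCT116-WT and 5 of HCT116-CD276KO cells. CD276 is a B7-family surface protein, and the HCT116-CD276KO cells were made by electroporating Cas9 with a guide RNA against it and sorting single cells. Since 1 clone gave all HCT116-CD276KO samples, the loss of CD276 and other properties of that clone cannot be told apart here. Whether the sequenced HCT116-WT cells had been through electroporation is not given in the sources used here. The authors name 5 biological replicates per group, and different flasks for HCT116-WT and HCT116-CD276KO cells. Whether each replicate had a flask of its own is not given in the sources used here. What the error between replicates spans is therefore not known. Values are TPM, the share of transcripts scaled for their length, so levels can be compared between genes. In bulk RNA a smaller number of cells with a transcript and less of it per cell cannot be told apart. TPM do not keep the number of reads, so no counting error is given.

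As a check of the edit, CD276 had a mean of 45.3 TPM (SD 6.17, n = 5) in HCT116-WT cells and of 5.46 TPM (SD 1.21, n = 5) in HCT116-CD276KO cells. All 6 epithelial markers looked at (EPCAM, KRT8, KRT18, KRT19, CDH1 and CLDN4) were expressed, and their summed level lay between 4283 and 5084 TPM in HCT116-WT libraries and between 3373 and 3848 TPM in HCT116-CD276KO libraries. Each of the 6 passed the test as lower in HCT116-CD276KO cells (adjusted p from 0.000154 to 0.0486, limma), with CDH1, which encodes E-cadherin, at a log2 fold change of -1.07. Over all fitted genes 4.09% were lower by this test. With median-of-ratios scaling the calls of EPCAM, KRT8, KRT18 and KRT19 were lost (adjusted p = 0.119, 0.0692, 0.0532 and 0.263 by limma). The call of KRT19 ended without 9 of the 10 libraries in turn and that of EPCAM without 8 of them, and both ended with the replicate block (adjusted p = 0.101 and 0.0799 by limma). Of 10 markers of fibroblasts, leukocytes and endothelium, COL1A1 and CD68 were the 2 above a mean of 1 TPM, LUM was listed at 0 in every library, and PTPRC, CD3E and PECAM1 stayed at or under 0.22 TPM in each. HCT116-CD276KO replicates 2 and 3 stood apart in how their values followed transcript length, with Spearman correlations of -0.52 and -0.49 between a gene's deviation and its length over genes, against -0.09 to 0.43 in the other 8 libraries. Log2 fold changes of the 10 genes are given with and without these libraries below, and those of other genes only in part. That of CDH1 was -0.84 without them.

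MAL2 (ENSG00000147676, chromosome 8, 119165034 to 119245673 on the plus strand of hg38) was the most abundant of the 10 RNAs in HCT116-WT cells and the least abundant in HCT116-CD276KO cells. Its levels in the HCT116-WT libraries were 218.18, 208.89, 184.40, 194.21 and 214.80 TPM for replicates 1 to 5. The HCT116-CD276KO libraries held 7.05, 7.44, 6.38, 7.01 and 6.97 TPM. The lowest HCT116-WT library therefore stood far above the highest HCT116-CD276KO library, and both groups were tight. HCT116-WT cells averaged 204 TPM (SD 14.3, n = 5), which is 29.3 times the 6.97 TPM (SD 0.38, n = 5) of HCT116-CD276KO cells, where 3.42% was left. On the log2(TPM + 1) scale the difference was -4.68 (standard error 0.07), the 2nd lowest of 13581 genes fitted. In HCT116-WT cells 94.3% of the fitted genes had a lower mean than MAL2, and in HCT116-CD276KO cells 31.8% did.

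The value of MAL2 moved little with the libraries used. Dropping single libraries gave log2 fold changes from -4.72 to -4.66, without HCT116-CD276KO replicates 2 and 3 together it was -4.68, and once each library's trend with transcript length and GC content had been removed it was -4.60. At 6.97 TPM the RNA was still detected in every HCT116-CD276KO library. The group means of the 6 epithelial markers were lower in HCT116-CD276KO cells too, for EPCAM with groups that overlapped. The part of these markers in the difference of MAL2 was not tested.

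**Figure D1:**
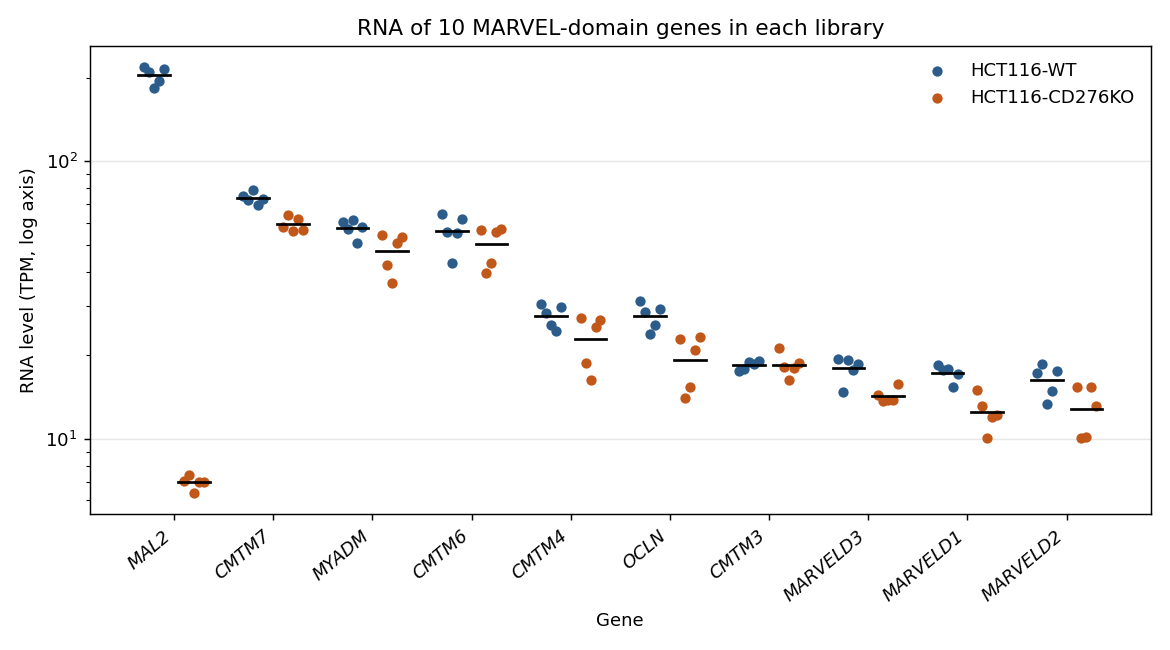
RNA level of 10 MARVEL-domain genes in TPM on a log axis, with 5 HCT116-WT libraries (blue) and 5 HCT116-CD276KO libraries (orange) per gene and the group mean as a black bar. MAL2 goes from the highest level, 184.40 to 218.18 TPM, to the lowest, 6.38 to 7.44 TPM, while the other 9 genes keep levels between 10.05 and 78.51 TPM in every library.

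Because MAL2 was so abundant, it set the makeup of the set. Summed over the 10 genes, the HCT116-WT libraries held 487 to 553 TPM, of which MAL2 made up 39.4% (SD 0.90, n = 5). In HCT116-CD276KO libraries the sum was 224 to 292 TPM and MAL2 made up 2.66% of it (SD 0.29, n = 5). Without MAL2 the sums were 293 to 335 TPM and 218 to 285 TPM, so that the other 9 genes together were lower in each HCT116-CD276KO library than in each HCT116-WT library, by far less than MAL2 alone.

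**Figure D2:**
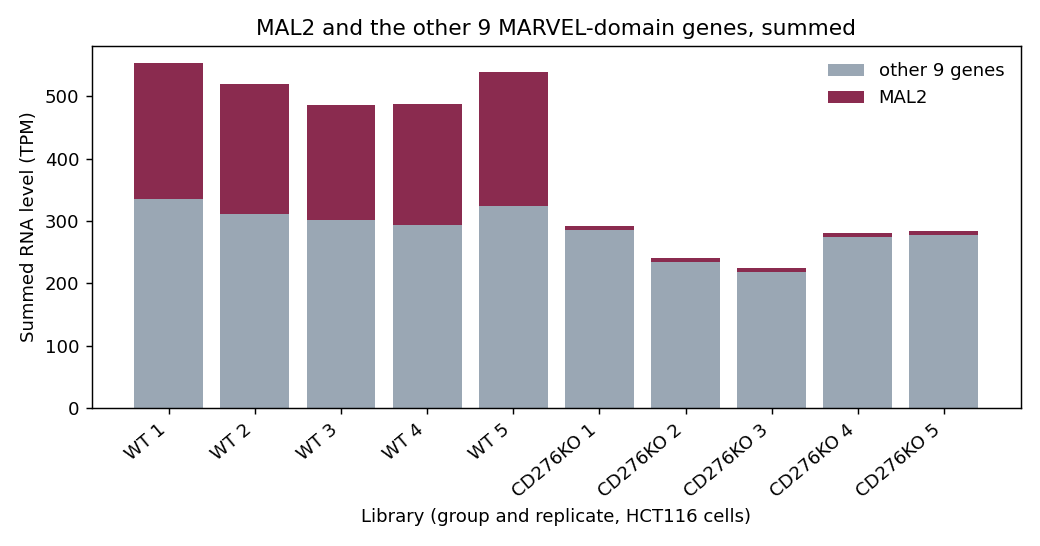
Summed TPM of MAL2 (dark red) and of the other 9 genes (grey) in each of the 10 libraries, with the y axis from 0. MAL2 makes up 37.9 to 40.2% of the bar in HCT116-WT libraries and 2.42 to 3.08% in HCT116-CD276KO libraries, and HCT116-CD276KO replicates 2 and 3 have the shortest bars.

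The 9 other genes kept nearly the same order. In HCT116-WT cells MAL2 was followed by CMTM7, MYADM, CMTM6, CMTM4, OCLN, CMTM3, MARVELD3, MARVELD1 and MARVELD2. The ranges of MYADM and CMTM6 overlapped, as did those of CMTM4 and OCLN, and those of neighbours among CMTM3, MARVELD3, MARVELD1 and MARVELD2, so these places in the order are not set apart by the spread between libraries. In HCT116-CD276KO cells the order was CMTM7, CMTM6, MYADM, CMTM4, OCLN, CMTM3, MARVELD3, MARVELD2, MARVELD1 and MAL2. There the gaps that libraries did not bridge were those between MYADM and CMTM4, between CMTM3 and MARVELD3, and between MARVELD1 and MAL2.

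Among the junctional proteins, OCLN encodes occludin, the first transmembrane protein found in tight junctions. OCLN (ENSG00000197822) is on chromosome 5 from 69492292 to 69558104, plus strand. It stood at 31.27, 28.70, 23.89, 25.69 and 29.27 TPM in HCT116-WT libraries and at 22.92, 14.08, 15.40, 20.90 and 23.26 TPM in HCT116-CD276KO libraries. The groups did not overlap, although HCT116-WT replicate 3 and HCT116-CD276KO replicate 5 came within 1 TPM of each other, and HCT116-CD276KO replicates 2 and 3 were the lowest. Its log2 fold change of -0.52 (standard error 0.14) left 69.6% of the HCT116-WT mean. Without HCT116-CD276KO replicates 2 and 3 it was -0.30, or 80.5%, and with the length and GC trends removed -0.34. OCLNP1, a near copy of part of OCLN, was at or under 0.89 TPM in every library, and how reads common to both were shared out is not given in the sources used here.

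MARVELD2 encodes tricellulin, which seals the corners where cells of an epithelium meet, and its gene ends 47961 bases before OCLN on the plus strand (ENSG00000152939, chromosome 5, 69415065 to 69444330). Tricellulin RNA measured 17.34, 18.59, 13.32, 14.90 and 17.50 TPM in HCT116-WT libraries and 15.42, 10.11, 10.15, 15.41 and 13.16 TPM in HCT116-CD276KO libraries. Here the groups overlapped, with replicates 1 and 4 of HCT116-CD276KO inside the HCT116-WT range. The log2 fold change of -0.34 (standard error 0.14) shrank to -0.14 without replicates 2 and 3.

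MARVELD3 (ENSG00000140832, chromosome 16, 71626161 to 71642114, plus strand) is the third tight-junction member. Its HCT116-WT values were 19.39, 14.77, 19.24, 17.67 and 18.63 TPM, and its HCT116-CD276KO values 14.37, 13.68, 13.76, 13.80 and 15.82 TPM. HCT116-WT replicate 2 alone lay within the HCT116-CD276KO range. MARVELD3 had a log2 fold change of -0.30 (standard error 0.08) and of -0.27 without HCT116-CD276KO replicates 2 and 3.

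MARVELD1 (ENSG00000155254, chromosome 10, 97713173 to 97718150, plus strand) was at 18.43, 17.71, 17.81, 15.44 and 17.17 TPM in HCT116-WT libraries. In HCT116-CD276KO libraries it was at 14.99, 13.11, 10.05, 11.97 and 12.16 TPM. Every HCT116-CD276KO library was below every HCT116-WT library. Its difference was -0.45 (standard error 0.10) on the log2 scale, -0.39 without HCT116-CD276KO replicates 2 and 3, and -0.34 with the length and GC trends removed.

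The CMTM genes of the set lie in pairs, each within a larger cluster of the family. CKLF, CMTM1 and CMTM2 are at lower coordinates on chromosome 16, and CMTM8 is on chromosome 3. CMTM7 and CMTM6 are neighbours on chromosome 3 whose annotated 3′ ends overlap by 1756 bases on opposite strands, and CMTM3 and CMTM4 on chromosome 16 face each other with 857 bases between them. The libraries were strand-specific, but whether the quantification used the strand is not given in the sources used here, so reads from the shared stretch of CMTM6 and CMTM7 may not have been told apart.

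CMTM7 (ENSG00000153551, 32391698 to 32483067, plus strand), described as acting in receptor endocytosis, had values of 75.13, 72.26, 78.51, 69.84 and 73.15 TPM in HCT116-WT libraries. The HCT116-CD276KO values were 57.78, 64.02, 56.12, 62.09 and 56.55 TPM, all below the HCT116-WT range. Its log2 fold change was -0.31 (standard error 0.06), the smallest standard error of the 10 genes, and it was -0.32 without HCT116-CD276KO replicates 2 and 3. The shift was thus not carried by those libraries. It was smaller with median-of-ratios scaling (-0.21) and with quantile normalization (-0.23).

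CMTM6 (ENSG00000091317, 32481312 to 32502852, minus strand) encodes the PD-L1 partner. Its HCT116-WT values were 64.70, 55.69, 43.13, 55.29 and 61.94 TPM, and its HCT116-CD276KO values 56.65, 39.48, 42.99, 55.79 and 57.12 TPM. The groups overlapped broadly, and the log2 fold change was -0.16 (standard error 0.13). Without HCT116-CD276KO replicates 2 and 3 it was 0.02, so even its sign depended on these libraries.

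CMTM4 (ENSG00000183723, 66614750 to 66696743, minus strand) encodes a protein that can stand in for CMTM6 in holding PD-L1. It was at 30.52, 28.52, 25.76, 24.40 and 29.84 TPM in HCT116-WT libraries and at 27.24, 18.73, 16.32, 25.21 and 26.90 TPM in HCT116-CD276KO libraries. Replicates 1, 4 and 5 of HCT116-CD276KO lay within the HCT116-WT range. For CMTM4 the log2 fold change was -0.29 (standard error 0.14), -0.07 without HCT116-CD276KO replicates 2 and 3, and -0.06 with the length and GC trends removed.

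CMTM3 (ENSG00000140931, 66603874 to 66613892, plus strand) had the same mean in both groups. Its values were 17.62, 17.82, 18.93, 18.67 and 19.14 TPM in HCT116-WT libraries and 21.28, 18.11, 16.27, 18.03 and 18.79 TPM in HCT116-CD276KO libraries. It averaged 18.4 TPM (SD 0.68, n = 5) against 18.5 TPM (SD 1.81, n = 5), and the log2 fold change was 0.00025 (standard error 0.07). Without HCT116-CD276KO replicates 2 and 3 the log2 fold change was 0.06.

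MYADM (ENSG00000179820, chromosome 19, 53864763 to 53876435, plus strand) was at 60.31, 57.14, 61.52, 50.97 and 57.88 TPM in HCT116-WT libraries and at 54.06, 42.43, 36.56, 50.78 and 53.23 TPM in HCT116-CD276KO libraries. The groups overlapped in that HCT116-WT replicate 4 lay below HCT116-CD276KO replicates 1 and 5. The log2 fold change of -0.29 (standard error 0.11) was -0.12 without HCT116-CD276KO replicates 2 and 3.

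Over the 10 genes, the groups did not overlap for 4 (MAL2, MARVELD1, OCLN and CMTM7), each lower in HCT116-CD276KO cells, and overlapped for 6. Over all fitted genes 6.19% were lower without overlap and 1.42% higher, or 5.3% lower with the length and GC trends removed. A negative log2 fold change was seen for 9 of the 10 genes, and for 68.1% of all. Since the set was drawn up with this comparison known, nothing is read from these counts. The 4 genes were also the ones without overlap when HCT116-CD276KO replicates 2 and 3 were left out, where 8.52% of all genes were lower without overlap, and when the length and GC trends were removed. MAL2 was the only member that differed by more than 2-fold, on a scale where 0.766% of fitted genes were lower by at least that much. The median log2 fold change of the 9 genes other than MAL2 was -0.30, against -0.09 for all genes fitted. It was -0.14 without HCT116-CD276KO replicates 2 and 3, against -0.03, and -0.18 with the length and GC trends removed, against 0.01. Median-of-ratios scaling gave a median of -0.21 for the 9 genes, against 0.004 for all genes. Quantile normalization gave -0.20, against 0.007. CMTM3 was the gene whose sign was not settled, at -0.05 to 0.12 over the alternatives, and CMTM6 turned positive in 1 of them.

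**Figure D3:**
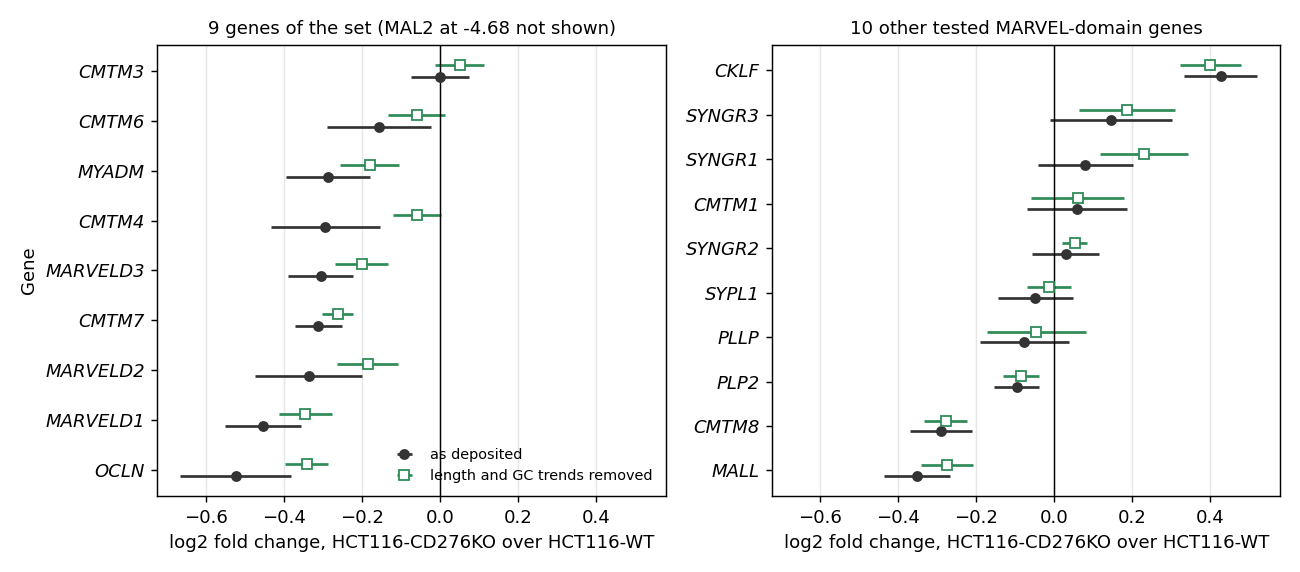
Log2 fold change of HCT116-CD276KO over HCT116-WT cells with its standard error, on log2(TPM + 1), for 9 genes of the set (left) and 10 other MARVEL-domain genes that were fitted (right), as deposited (black) and with length and GC trends removed (green). On the left 8 of 9 black points lie below 0, OCLN lowest at -0.52 and CMTM3 at 0, and most move towards 0 once the trends are removed. On the right MALL is lowest at -0.35 and CKLF highest at 0.43.

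The members differed in how far their libraries spread, and the longest transcripts spread most. The length here is that of the canonical transcript in GENCODE 44. The SD on the log2(TPM + 1) scale, pooled over the groups, was 0.25 for OCLN (6181 bases), 0.25 for CMTM4 (8153 bases), 0.24 for MARVELD2 (4423 bases) and 0.24 for CMTM6 (3307 bases). It was 0.07 for CMTM7 (1856 bases), 0.10 for CMTM3 (1901 bases), 0.09 for MAL2 (2826 bases) and 0.15 for MARVELD1 (3213 bases). Deviations followed GC content too, with the highest Spearman correlations in HCT116-WT replicate 3 (0.61) and HCT116-CD276KO replicate 2 (0.48). The lowest HCT116-WT value was that of replicate 3 for MAL2, OCLN, MARVELD2 and CMTM6, and of other replicates for the rest. The parts of length and GC content in the spread were not tested. In all 10 genes the lowest HCT116-CD276KO value was that of replicate 2 or 3. Over all fitted genes these libraries also had the lowest median deviations, -0.10 and -0.15 on the log2 scale. For MAL2 and CMTM7, however, replicate 2 was the highest HCT116-CD276KO library (7.44 and 64.02 TPM). With the length and GC trends removed, the SD dropped to 0.08 for OCLN, 0.09 for CMTM4, 0.13 for MARVELD2 and 0.12 for CMTM6. For MAL2 it was 0.10. This correction was computed over the 13472 fitted genes with a length and a GC value, all 10 members among them.

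**Figure D4:**
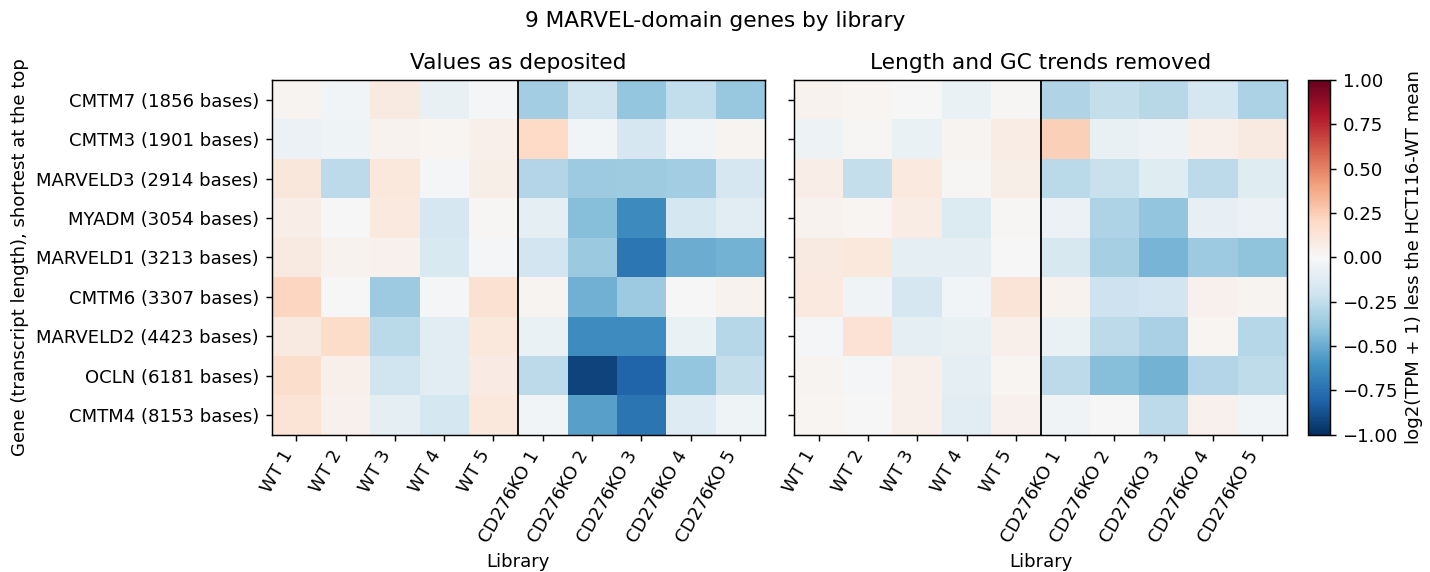
Heat maps of 9 MARVEL-domain genes (rows, by transcript length) in 10 libraries (columns), with colour for log2(TPM + 1) less the HCT116-WT mean of the gene, from blue at -1 to red at 1. As deposited (left), HCT116-CD276KO replicates 2 and 3 are darkest for the longer transcripts OCLN, CMTM4 and MARVELD2. With length and GC trends removed (right), MARVELD1, MARVELD3, OCLN, CMTM7 and MYADM stay below their HCT116-WT mean in all 5 HCT116-CD276KO libraries, MYADM only slightly in some. CMTM4 is pale in 4 of 5.

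The rest of the domain family was read from the same fit, as a list that was also drawn up with results of these libraries known. Of 17 further MARVEL-domain genes, 10 passed the filter and 7 (MAL, CMTM2, CMTM5, MYADML2, SYP, SYPL2 and SYNGR4) did not. MAL, which gave the family its name, was listed at 0 TPM in every library. By limma on log2(TPM + 1) with Benjamini-Hochberg adjustment over 13581 genes, 1 of the 10 fell (MALL) and 1 rose (CKLF) at an adjusted p under 0.05, as did 4.09% (lower) and 0.781% (higher) of all fitted genes. Neither was past 2-fold, where 0.464% of all genes were lower and 0.0221% higher, 0.486% in both directions. With the length and GC trends removed CMTM8 was called too, and 5.04% of all genes were called lower and 4.16% higher, 9.2% in all. Of all calls 556 were lower and 106 higher, against 386 and 197 with median-of-ratios scaling and 385 and 253 with quantile normalization. The median log2 fold change of the 10 was -0.01.

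MALL, a MAL relative of raft membranes, fell, with 125 TPM (SD 8.95, n = 5) against 98.2 TPM (SD 10.7, n = 5). Its HCT116-WT values were 131.83, 124.62, 110.36, 127.33 and 132.37 TPM, all above the HCT116-CD276KO values of 106.55, 92.44, 83.27, 99.19 and 109.78 TPM. For MALL the log2 fold change was -0.35 (standard error 0.08, adjusted p = 0.0356 by limma), and it was -0.25 (adjusted p = 0.126 by limma) without HCT116-CD276KO replicates 2 and 3. CKLF, a secreted chemokine-like factor whose gene lies 37.6 kb from CMTM3, rose, with 29.9 TPM (SD 2.41, n = 5) against 40.7 TPM (SD 5.22, n = 5). Its HCT116-WT values reached from 27.39 to 33.83 TPM and its HCT116-CD276KO values from 33.76 to 45.96 TPM, so that the groups overlapped by a margin under 1 TPM. For CKLF the log2 difference was 0.43 (standard error 0.09, adjusted p = 0.0241 by limma), and 0.31 (adjusted p = 0.101 by limma) without HCT116-CD276KO replicates 2 and 3. The call of MALL ended without 7 of the 10 libraries in turn (HCT116-WT 1, 2, 4 and 5, HCT116-CD276KO 2, 3 and 4) and that of CKLF without 6 (HCT116-WT 1, 2, 4 and 5, HCT116-CD276KO 2 and 3). With all genes above 0 TPM fitted the call of MALL was lost (adjusted p = 0.0687 by limma). The highest of the other family genes, PLP2 at 203 TPM in HCT116-WT cells and SYNGR2 at 139.9 TPM, had log2 fold changes of -0.10 and 0.03 (adjusted p = 0.333 and 0.853 by limma).

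In the list of MAL2 partners and genes of apical transcytosis, 4 fell. TPD52, TPD52L1 and TPD52L2 encode D52 proteins that bind MAL2, INF2 and CDC42 act with it in transcytosis, and the RAB11 group, MYO5B and STX3 serve apical recycling and fusion. Of 23 such genes 20 were fitted, of which 4 fell, 0 rose and 16 did not pass, with a median log2 fold change of -0.10. The genes that fell were 20.0% of the list, where 4.09% of all fitted genes fell. Those that fell were S100A10, MYO5B, STX3 and RAB25. The genes named above as binding or acting with MAL2 did not pass. These were TPD52, TPD52L1, TPD52L2, INF2 and CDC42 (adjusted p from 0.366 to 0.973 by limma). The most abundant of the list were ANXA2, RAB11A and CDC42, with log2 fold changes of -0.13, -0.10 and -0.10 (adjusted p = 0.147, 0.321 and 0.379 by limma). TPD52, named after its values were seen because its product binds MAL2, had means of 131 and 124 TPM, or -0.07 on the log2 scale (standard error 0.06, adjusted p = 0.473 by limma).

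S100A10, the partner of annexin A2, fell, with 316 TPM (SD 14.9, n = 5) against 199 TPM (SD 13.7, n = 5). It was at 302.1 to 338.0 TPM in HCT116-WT libraries and at 184.49 to 221.24 TPM in HCT116-CD276KO libraries, without overlap. For S100A10 the log2 difference was -0.67 (standard error 0.06, adjusted p = 5.22e-05 by limma), and the call held without each library in turn. RAB25, an epithelial relative of RAB11, fell from 71.3 to 60.6 TPM (log2 fold change -0.23, adjusted p = 0.0228 by limma), without overlap. MYO5B, the motor of apical recycling endosomes, fell from 18.2 to 11.8 TPM (log2 fold change -0.59, adjusted p = 0.0443 by limma) with groups that overlapped. STX3, an apical syntaxin, fell from 20.5 to 16.2 TPM (log2 fold change -0.32, adjusted p = 0.0323 by limma), and its call was lost once length and GC trends were removed (adjusted p = 0.314 by limma). The calls of RAB25, MYO5B and STX3 each ended without HCT116-WT replicates 1, 2, 4 or 5, that of RAB25 also without HCT116-CD276KO replicate 4, that of STX3 without 2 or 3, and that of MYO5B without any of 2 to 5, with adjusted p up to 0.0815, 0.119 and 0.102 over the libraries left out. Without HCT116-CD276KO replicates 2 and 3 together the adjusted p by limma was 0.0278, 0.214 and 0.128. RAB25 was at -0.13 with median-of-ratios scaling and at -0.15 with quantile normalization on the log2 scale (adjusted p = 0.28 and 0.17 by limma), and STX3 at -0.23 and -0.20 (adjusted p = 0.0598 and 0.102 by limma). With the replicate block both calls were lost as well (adjusted p = 0.0983 for RAB25 and 0.0586 for STX3 by limma), and that of MYO5B was lost with all genes above 0 TPM fitted (adjusted p = 0.107 by limma).

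Among partners of the junctional proteins, 9 of 11 were fitted, of which 8 did not pass the test and 0 rose. All 9 had a negative log2 fold change, as did 68.1% of all fitted genes, and the median was -0.31, against -0.09 over all genes. With length and GC trends removed 7 were negative and 2 positive, where 6290 of 13472 genes were negative. The median was then -0.18, against 0.01 over all genes. LSR, which recruits tricellulin to cell corners, had a log2 fold change of -0.15 (adjusted p = 0.277 by limma), F11R one of -0.35 (adjusted p = 0.137 by limma) and TJP1 one of -0.44 (adjusted p = 0.13 by limma). With the length and GC trends removed TJP1 passed, at -0.23 (adjusted p = 0.0356 by limma).

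Of 9 partners of the CMTM proteins 8 were fitted and 0 passed, with 2 at an unadjusted p under 0.05 by limma. CD274, the gene of PD-L1, was near the lower limit in both groups, at 0.88 to 1.85 TPM and at 0.52 to 1.99 TPM. RAB5C, STUB1 and RAB5B, the 3 most abundant with means of 162, 71.8 and 43.9 TPM in HCT116-WT cells, had log2 fold changes of -0.04, 0.17 and -0.28 (adjusted p = 0.78, 0.366 and 0.297 by limma). EGFR, a receptor whose uptake CMTM7 is known to affect, was named after its values were seen. It averaged 26.9 TPM (SD 3.13, n = 5) against 15.9 TPM (SD 5.58, n = 5) without overlap, or -0.79 on the log2 scale (standard error 0.21, adjusted p = 0.0572 by limma). With the length and GC trends removed EGFR passed, at a smaller -0.55 (adjusted p = 0.0121 by limma). HCT116-CD276KO replicates 2 and 3 were its lowest libraries, at 8.77 and 11.2 TPM, against 17.83 to 21.09 TPM in replicates 1, 4 and 5.

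Of 7 scaffolds of raft membrane (CAV1, CAV2, CAVIN1, FLOT1, FLOT2, STOM and RFTN1) all were fitted and 0 passed. An unadjusted p under 0.05 by limma was seen for 2, or 28.6%, and for 21.9% of all fitted genes. CAV1, CAV2 and FLOT2 were the most abundant and had log2 fold changes of -0.03, 0.03 and -0.25 (adjusted p = 0.871, 0.82 and 0.0682 by limma). With length and GC trends removed 2 of the 7 were called higher, CAVIN1 at 0.20 and FLOT1 at 0.25.

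Of 5 partners of MYADM, 1 fell. ICAM1, an adhesion receptor for leukocytes, averaged 3.11 TPM (SD 0.52, n = 5) against 0.228 TPM (SD 0.117, n = 5), and was at 2.44 to 3.65 TPM against 0.13 to 0.43 TPM. Its log2 fold change was -1.74 (standard error 0.12, adjusted p = 7.28e-06 by limma), the 1 partner gene past 2-fold. EZR, RAC1 and MSN, the most abundant, had log2 fold changes of -0.24, -0.02 and -0.36 (adjusted p = 0.138, 0.841 and 0.117 by limma). Over the 5 lists of partners, 49 of 55 genes were fitted, and 6 fell and 0 rose. That is 12.2% of the partners, against 4.09% lower and 0.781% higher over all fitted genes.

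The surroundings of MAL2 on chromosome 8 did not share the size of its difference. Within 1 Mb of the gene 27 other identifiers lie, of which 4 were fitted (SAMD12, TAF2, DSCC1 and DEPTOR). SAMD12, 543 kb away at lower coordinates, fell, with 4.46 TPM (SD 0.77, n = 5) against 2.78 TPM (SD 0.56, n = 5). Its HCT116-WT values of 5.24, 4.26, 3.83, 3.66 and 5.30 TPM lay just above the HCT116-CD276KO values of 3.65, 2.33, 3.05, 2.48 and 2.41 TPM. For SAMD12 the log2 difference was -0.53 (standard error 0.13, adjusted p = 0.0394 by limma), and the call ended without 7 of the 10 libraries in turn (HCT116-WT 1, 2 and 5, HCT116-CD276KO 2 to 5), with an adjusted p up to 0.114, or 0.133 by limma without HCT116-CD276KO replicates 2 and 3 together. It was also lost with median-of-ratios scaling, quantile normalization, the replicate block and all genes above 0 TPM (adjusted p = 0.0618, 0.0706, 0.0619 and 0.0997 by limma). TAF2, DSCC1 and DEPTOR, between 485 and 628 kb away at higher coordinates, had log2 fold changes of -0.34, -0.06 and 0.01 (adjusted p = 0.238, 0.724 and 0.966 by limma).

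Around the 10 genes together, 127 neighbours within 1 Mb were fitted, of which 2 fell, 1 rose and 0 were past 2-fold. Besides SAMD12 these were CALB2 near MARVELD3, from 5.86 to 3.61 TPM (log2 fold change -0.57, adjusted p = 0.00906 by limma, 0.0546 without HCT116-CD276KO replicates 2 and 3 and 0.0531 with the replicate block), and CKLF near CMTM3 and CMTM4. That is 2.36% of the neighbours, where 4.87% of all fitted genes passed. At an unadjusted p under 0.05 by limma there were 17, or 13.4%, where 21.9% of all fitted genes were.

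The profile of MAL2 over the libraries was set beside those of all fitted genes off the Y chromosome, by the mean absolute difference of log2(TPM + 1) less the HCT116-WT mean over the 10 libraries. The closest was ZBED2 at 0.74, and CD276 at 1.00, NRG1 at 1.09 and IL32 at 1.18 were also among the 5 closest. NRG1, a ligand of ERBB receptors, went from a mean of 10.2 to 0.832 TPM. IL32, a cytokine gene, went from 5.69 to 0.186 TPM. The measure picks genes with a large fall in HCT116-CD276KO libraries. That the groups of these 4 did not overlap follows from this choice, and nothing is read from it. The likeness is a description over 10 libraries.

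RefSeq promoter windows on GRCh38.p14 were at hand for 8 of the 10 genes, and not for MAL2 and MARVELD3. All 8 held the GC box GGGCGG on either strand, as did 44.6% of 27305 promoters. The GC content of the 8 windows was 56.3% (CMTM6) to 82.7% (CMTM4), with a median of 58.3% over all promoters. Its part in the GC box matches was not tested. These letter matches are descriptions of the windows.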

How the data were processed

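RNA of 5 HCT116-WT and 5 HCT116-CD276KO samples was measured by strand-specific RNA-seq. The authors deposited 1 table of TPM for 58050 Ensembl identifiers, made on hg38. The submitters' processing notes name STAR 2.5.2b, RSEM 1.3.0 and featureCounts 1.5.1, and which of them gave the TPM is not given in the sources used here. Each column sums to the same total, so the values do not show the depth of each library.

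Groups came from the sample labels. Genes averaging 1 TPM or more (13581) were fitted with limma 3.58.1 in R 4.3.3 on log2(TPM + 1) with a variance trend, and p-values were adjusted by Benjamini-Hochberg over all of them. A call is an adjusted p under 0.05. Fold changes on this scale understate those of low genes. Length and GC trends were removed per library by loess (span 0.3), with transcripts of GENCODE 44, whose genome is also hg38. The fit was tested on simulated data.

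The 10 genes and all lists were chosen with earlier results of these data known. Named are the 10 genes, CD276, OCLNP1, every called gene and the 3 most abundant of each list, and fitted neighbours of MAL2. Alternatives changed the pseudocount, filter, scaling, variance model, replicate block, fold threshold, window and libraries used. Leaving out HCT116-CD276KO replicates 2 and 3 together was chosen after seeing the data. Some genes that this rule would name are not reported here, though they remain in the counts over lists.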

Additional observations from a re-analysis of the deposited data

How the results depend on the processing

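The log2 fold change of MAL2 was -4.68 and kept its direction in 20 of 20 alternatives, at -4.59 with median-of-ratios scaling, -4.60 with quantile normalization, -4.85 with a pseudocount of 0.1 and -4.87 as the ratio of mean TPM, and at -4.72 to -4.66 with single libraries left out. The 662 genes called over the table became 1240 with length and GC trends removed, 378 with the replicate block, 346 without HCT116-CD276KO replicates 2 and 3, and 340 (without HCT116-WT replicate 5) to 886 (without HCT116-CD276KO replicate 1) with single libraries left out. Whether equal replicate numbers mark paired samples is not given in the sources used here. Same-numbered samples correlated at -0.18 to 0.12 and the others at -0.20 to 0.32, which cannot settle it. Lower calls were 84.0% of calls, 66.2% with median-of-ratios scaling, 60.3% with quantile normalization and 54.8% with the trends removed. Past 2-fold, 66 genes became 40 with a mean of at least 5 TPM, 112 with a pseudocount of 0.1 and 238 at 1.5-fold. The 2 other MARVEL-domain calls became 1 with all genes above 0 TPM or without HCT116-CD276KO replicates 2 and 3, and 0 to 2 with single libraries left out. The 6 partner calls became 10 with the trends removed and 3 to 8 with single libraries left out, and the 1 past 2-fold became 0 with a mean of at least 5 TPM and 4 at 1.5-fold. The 3 neighbour calls became 6 with all genes, 7 with the trends removed, 1 with a mean of at least 5 TPM or the replicate block, 8 in a window of 2 Mb and 1 to 3 with single libraries left out, and 1 neighbour was past 2-fold with all genes, with the trends removed or without HCT116-CD276KO replicates 2 and 3. The cause of these shifts was not tested. TPM leave the depth of each library unknown.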
